A study of Mus musculus with 8 samples.

Results

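Transcripts of 10 genes that build or break down triglyceride were followed in mouse liver tumours and non-tumour liver. The genes were taken from a list of enzymes by function, 7 of synthesis (Gpam, Agpat2, Lpin1, Lpin2, Dgat1, Dgat2 and Mogat1) and 3 lipases (Pnpla2, Lipe and Mgll), and not by their measured values. All 10 were found by symbol among the 54838 gene IDs counted, and all 10 were among the 13650 genes abundant enough to be tested. Bulk RNA sequencing had been made from 8 pieces of liver of male wild-type C57BL/6J mice. Every mouse had received the liver carcinogen diethylnitrosamine into the peritoneum on day 15 of life and was fed a high-fat diet together with SW, which the labels do not spell out, so tumour and non-tumour pieces share carcinogen, diet, strain and sex. Of the pieces, 4 were labelled tumour and 4 non-tumour liver, numbered 1 to 4 in each group. In the labels, 30 weeks stands for how long the diet lasted and also for the time since the injection, which leaves the age of the mice at sampling unclear. They do not say whether the pieces came from separate mice, and the p-values below measure the spread between these samples only.

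Liver stores fatty acids as triglyceride in lipid droplets and exports part of it in lipoproteins. In the glycerol phosphate pathway an acyltransferase (GPAT) makes lysophosphatidic acid, a further acyltransferase (AGPAT) makes phosphatidic acid, a lipin removes the phosphate to leave diacylglycerol, and a diacylglycerol acyltransferase (DGAT) adds the last fatty acid; monoacylglycerol acyltransferase (MGAT) reaches diacylglycerol by a shorter route. In lipolysis, adipose triglyceride lipase (ATGL), hormone-sensitive lipase (HSL) and monoglyceride lipase remove the fatty acids again in turn, and in hepatocytes the ATGL step feeds fatty acid oxidation.

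The 8 libraries held 15446690 to 21977052 counts, and the limit set by 3 counts in a library was 0.137 to 0.194 CPM, for counting error only; CPM are counts scaled to a common library size, with the TMM correction for differences in composition. Tumours 2 and 4 were nearly the same library, as were the libraries non-tumour 2, 3 and 4: among these 4 pairs the chi-square of the gene counts per degree of freedom was 1.58 to 3.28, against 71.7 to 165 in the other 24 pairs. Their counts were summed and each set was counted once, which left 5 profiles, 3 of tumour (1, 2/4 and 3) and 2 of non-tumour liver (1 and 2/3/4). The library labelled tumour 3 stood apart from the other tumours. Afp, the fetal serum protein that many liver tumours make again, reached 837, 426 and 423 CPM in tumours 1, 2 and 4 but 1.45 CPM in tumour 3, while non-tumour 1 had 19.4 CPM and the near-identical non-tumour libraries 4.67 to 5.11 CPM. Hepatocyte markers were abundant in every profile, with 8 listed genes summing to 104600 to 182700 CPM. Adipocytes, the other main source of these enzymes, left little trace: Lep and Plin1 had 3 reads or fewer in every library and Adipoq was at or below 0.0978 CPM, while the 8 listed markers summed to 21.4 to 23.8 CPM in tumour and 17.2 to 19.7 CPM in non-tumour profiles, mostly through Fabp4 and Adrb3.

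In TMM-scaled CPM, tumour and non-tumour profiles overlapped for every one of the 10 enzymes. Pnpla2 did separate when levels were scaled to a common total per exon length, without TMM, as given below. No enzyme passed edgeR's quasi-likelihood test after Benjamini-Hochberg adjustment over the whole table: 0 of 10 had an adjusted p under 0.05, and the background was also 0% of 13650 genes. At an unadjusted p under 0.05 there were again 0 of 10 enzymes, against 3.30% of all genes (451 of 13650). By TMM-scaled CPM, profiles of the 2 groups were separated without overlap in 0 of 10 enzymes and in 18.4% of genes, 9.47% with the tumours higher and 8.89% with the tumours lower. Log2 fold changes, tumour over non-tumour, were positive for 5 enzymes and negative for 5, and their median was 0.01, as was that of all genes. With the 8 libraries taken as separate samples, edgeR called 0.435% of 12880 genes and 18.0% had an unadjusted p under 0.05, and 0 of 10 enzymes met either limit. Among the settings tried, a call on an enzyme arose only when the libraries were kept separate and tumour 3 was left out. That edgeR fit took near-identical libraries as separate samples and called 1798 of 13211 genes. The enzymes among them were Agpat2 (log2 fold change -0.31, adjusted p = 0.0464), Lpin2 (-0.58, adjusted p = 0.0223) and Pnpla2 (-0.53, adjusted p = 0.00653). With near-identical libraries counted once and tumour 3 left out, their log2 fold changes were -0.33, -0.49 and -0.49 and their adjusted p by edgeR 0.668, 0.577 and 0.367.

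**Figure D1:**
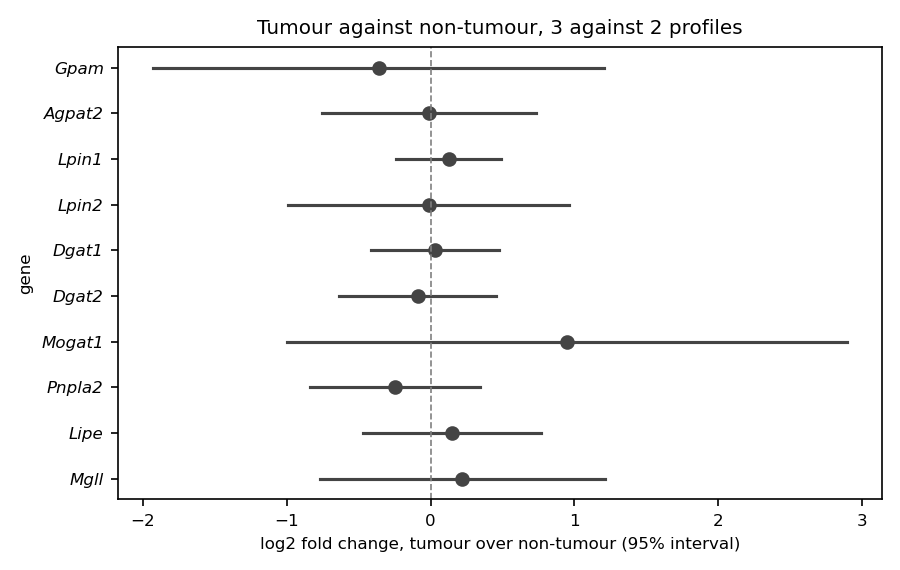
Log2 fold change of each enzyme's transcript, tumour over non-tumour, from the edgeR fit on 3 tumour and 2 non-tumour profiles (points), with 95% intervals (lines). All 10 intervals cross 0; that of Mogat1 reaches 2.90 and that of Lpin1 runs from -0.24 to 0.49.

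**Figure D2:**
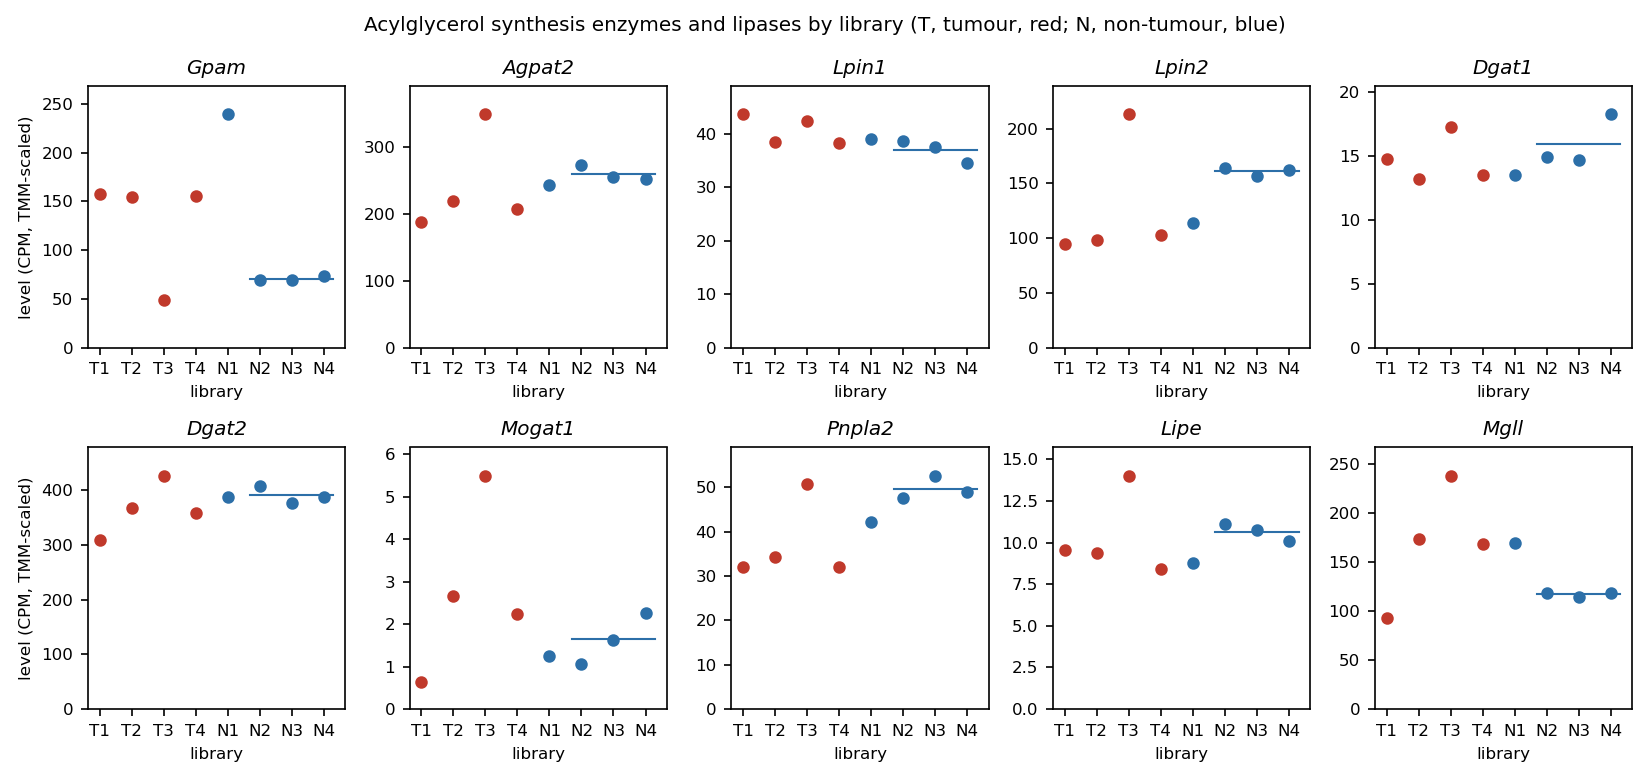
Level of each enzyme's transcript in each library, in TMM-scaled CPM on axes that start at 0 and differ between genes. T marks tumour (red), N non-tumour (blue), and the line is the level from the summed counts of the near-identical non-tumour 2, 3 and 4. Red and blue points overlap in all 10 genes, Gpam is low in T3 and in N2, N3 and N4, and Mogat1 and Mgll are lowest in T1.

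Stretches of promoter sequence are shown for 5 of the enzymes, from windows that hold a motif match and no annotated exon bases, as the DNA from which these transcripts start. Each is the 250 bases before a RefSeq start site in the mouse build GRCm38.p6, written 5′ to 3′ on the gene's strand, and capitals mark matches to any of 6 motifs searched on both strands: the E-box CACGTG, bound by carbohydrate-response, clock and SREBP factors among others, a sterol regulatory element TCACNCCAC, the CCAAT box, a direct repeat of the nuclear receptor half-site AGGTCA spaced by 1 base, the D-box TTANGTAA, and the GC box GGGCGG. Of the 10 enzymes, 8 had RefSeq entries, with 13 start sites in all; none was at hand for Dgat1 or Dgat2. The E-box was in 3 of the 13 windows and in 6.02% of 32851 windows of all genes, the CCAAT box in 2 of 13 and in 33.8%, and the GC box in 7 of 13 and in 32.7%. The sterol element (1.05% of all windows), the nuclear receptor repeat (0.0335%) and the D-box (2.06%) were in 0 of 13. A match is a run of letters and not a measured binding site.

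Gpam, the mitochondrial GPAT that commits fatty acids to glycerolipid, varied more between profiles than any other of the 10 except Mogat1 (chromosome 19, 55069734 to 55099451, minus strand, GRCm38). Its level was 158, 155, 48.9 and 155 CPM in tumours 1, 2, 3 and 4, and 240, 68.9, 69.7 and 73.1 CPM in non-tumour 1, 2, 3 and 4. The high and low levels thus fell within each group: tumour 3 and non-tumour 2/3/4 were low, and non-tumour 1 was the highest, 4.90-fold above tumour 3. This range was wider than that of 92.9% of genes tested, whereas the near-identical libraries differed by at most 1.06-fold. Tumour 1 and tumour 2/4 differed by less than that spread, and the other steps in the order of profiles by more. The group means were 121 ± 62.0 CPM in tumours (SD, n = 3) and 155 ± 119 CPM in non-tumour liver (n = 2), and the log2 fold change was -0.36 (SE 0.65, adjusted p = 0.995 by edgeR). The direction rested on single profiles: the log2 fold change was 0.77 without non-tumour 1, -0.99 without non-tumour 2/3/4 and 0.01 without tumour 3. Low levels in both tumour 3 and non-tumour 2/3/4 were also seen in 21.5% of all genes.

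Gpam has 2 RefSeq starts. The upstream start lies outside the span of the counted gene (window chr19:55127239-55127488, minus strand) and has a CCAAT box, here on the opposite strand, beginning 74 bases before it. The downstream start lies just upstream of the counted gene (chr19:55099478-55099727, minus strand), with a GC box beginning 16 bases before it. The counts do not tell which start was used.
Gpam upstream start: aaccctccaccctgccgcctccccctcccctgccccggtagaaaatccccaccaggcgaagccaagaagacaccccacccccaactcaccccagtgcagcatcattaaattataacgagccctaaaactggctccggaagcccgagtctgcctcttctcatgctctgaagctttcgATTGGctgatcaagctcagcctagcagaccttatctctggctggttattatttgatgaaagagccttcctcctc
Gpam downstream start: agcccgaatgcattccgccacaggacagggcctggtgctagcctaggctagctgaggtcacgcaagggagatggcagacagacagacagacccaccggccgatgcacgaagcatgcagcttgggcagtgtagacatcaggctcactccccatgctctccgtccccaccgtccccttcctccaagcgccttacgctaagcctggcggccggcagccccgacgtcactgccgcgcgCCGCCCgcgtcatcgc

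Markers of other liver cells shared part of the Gpam pattern. All 7 endothelial and all 7 Kupffer cell markers (the resident macrophages of liver) listed were highest in non-tumour 1, as Gpam was and as 20.4% of all genes were. Low levels in both tumour 3 and non-tumour 2/3/4 were shared by 5 of 7 endothelial and 3 of 7 Kupffer cell markers. The endothelial markers summed to 178, 161 and 136 CPM in tumours 1, 2/4 and 3 and to 300 and 128 CPM in non-tumour 1 and 2/3/4. The Kupffer cell markers summed to 236, 214 and 177 CPM in the tumours and to 598 and 194 CPM in non-tumour 1 and 2/3/4. Among 11368 genes, the 3 with profiles most like that of Gpam, by the root mean square difference of centred log2 CPM over the 5 profiles, were Dusp8 (0.12), the endothelial receptor gene Lyve1 (0.15) and the myeloid lectin gene Clec4a2 (0.15). Genes that rise with feeding shared the pattern in part as well. Of 10, 5 were highest in non-tumour 1, and 3 were low in both tumour 3 and non-tumour 2/3/4, against 21.5% of all genes. Acly, 1 of the 10, had the same order of profiles as Gpam, at 379, 292 and 174 CPM in tumours 1, 2/4 and 3. It was at 407 and 207 CPM in non-tumour 1 and 2/3/4. The part of these cells, or of feeding, in the Gpam values was not tested. In bulk tissue, fewer cells of a type and less RNA per cell cannot be told apart.

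The other GPAT genes did not share the Gpam pattern. Gpat4, a GPAT of the endoplasmic reticulum, was at 80.2, 91.2 and 86.6 CPM in tumours 1, 2/4 and 3 and at 99.7 and 146 CPM in non-tumour 1 and 2/3/4; these groups did not overlap, but the difference did not pass the edgeR test (log2 fold change -0.51, SE 0.22). Gpat3 was at 3.76, 6.74 and 6.07 CPM in the tumours and at 2.82 and 4.04 CPM in non-tumour liver, with overlap. Per exon length, in TPM (a read density scaled to a common total), Gpam made up 74.8%, 71.4% and 44.2% of the 4 GPAT transcripts in tumours 1, 2/4 and 3, and 79.2% and 43.7% in non-tumour 1 and 2/3/4. The share therefore split as the Gpam level did, within both groups: 63.5 ± 16.8% in tumours (SD, n = 3) against 61.4 ± 25.1% in non-tumour liver (n = 2).

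Agpat2 acylates lysophosphatidic acid, and its loss causes lipodystrophy with fatty liver in humans and mice (chromosome 2, 26593057 to 26604417, minus strand). Its level was 188, 220, 350 and 208 CPM in tumours 1 to 4 and 244, 273, 255 and 253 CPM in non-tumour 1 to 4. In TMM-scaled CPM, tumour 3 was above, and the other tumours were below, every non-tumour library. By TPM, tumour 3 (277 TPM) was still the highest, but tumour 2 (253 TPM) was also above every non-tumour library (231.5 to 250.7 TPM). The groups averaged 251 ± 87.1 and 252 ± 12.1 CPM (SD, n = 3 and 2), and the log2 fold change was -0.01 (SE 0.31, adjusted p = 0.999 by edgeR). The profiles spanned 1.87-fold, against 1.08-fold within near-identical sets. Agpat2 was the most abundant AGPAT transcript, with 76.6% to 85.2% of Agpat1 to Agpat5 by TPM in tumours and 77.3% and 82.4% in non-tumour liver. Egfl7, a gene on the other strand, overlaps its span; per the file headers, counting used the strand. Its promoter (chr2:26604418-26604667, minus strand) has overlapping GC boxes that begin 42 and 37 bases before the start.
Agpat2 start: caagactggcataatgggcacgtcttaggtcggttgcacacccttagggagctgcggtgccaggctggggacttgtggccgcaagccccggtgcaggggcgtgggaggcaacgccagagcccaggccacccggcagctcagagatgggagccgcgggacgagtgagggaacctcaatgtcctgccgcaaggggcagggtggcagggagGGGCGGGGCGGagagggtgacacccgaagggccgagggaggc

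The lipins Lpin1 and Lpin2 encode the enzymes that turn phosphatidic acid into diacylglycerol, and they differed in how far they varied. Lpin1, which also acts as a transcriptional coactivator with PPARα and PGC-1α (chromosome 12, 16535669 to 16610966, minus strand), was the steadiest of the 10: 43.8, 38.5, 42.4 and 38.3 CPM in tumours 1 to 4 and 39.2, 38.6, 37.5 and 34.6 CPM in non-tumour 1 to 4. No step in its order of profiles exceeded the spread within near-identical sets, and 4.86% of genes had a smaller range. Lpin2, the main lipin of mouse liver (chromosome 17, 71182560 to 71249817, plus strand), was at 94.8, 98.8, 214 and 103 CPM in tumours 1 to 4. In non-tumour 1 to 4 it was at 114, 164, 157 and 162 CPM. Tumour 3 was thus 2.25-fold above tumour 1, with all non-tumour values between them, and each step in the order of profiles was larger than the 1.05-fold range of near-identical libraries.

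The interval of the log2 fold change was -0.24 to 0.49 for Lpin1 (0.13, adjusted p = 0.995 by edgeR) and -0.99 to 0.96 for Lpin2 (-0.01, adjusted p = 0.999). Lpin1 made up 30.1%, 28.4% and 18.8% of the lipin transcripts by TPM in tumours 1, 2/4 and 3 and 27.4% and 21.1% in non-tumour 1 and 2/3/4. With Lpin1 steady, its share must fall where Lpin2 is high, so this is not a separate observation. Lpin3, the remaining lipin, was at 10.2, 6.47 and 5.69 CPM in the tumours and at 5.28 and 3.99 CPM in non-tumour 1 and 2/3/4, without overlap; the difference did not pass the edgeR test (log2 fold change 0.69, SE 0.33). A window of Lpin2 (chr17:71183282-71183531, plus strand) holds an E-box beginning 9 bases before its start and a GC box beginning 24 bases before it; the Lpin1 window held none of the 6 motifs.
Lpin2 start: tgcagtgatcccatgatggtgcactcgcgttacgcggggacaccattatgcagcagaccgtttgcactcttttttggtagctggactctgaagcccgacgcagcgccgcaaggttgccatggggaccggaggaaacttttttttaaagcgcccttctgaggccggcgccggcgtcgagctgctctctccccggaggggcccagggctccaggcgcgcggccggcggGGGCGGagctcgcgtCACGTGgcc

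Dgat1 and Dgat2, which share the final step without being related in sequence, had different levels and both varied little. Dgat2, the enzyme mainly linked to newly made fatty acids (chromosome 7, 99153658 to 99182719, minus strand), was at 309, 366, 426 and 359 CPM in tumours 1 to 4 and at 387, 407, 377 and 388 CPM in non-tumour 1 to 4. In TMM-scaled CPM, tumour 3 was above and tumours 1, 2 and 4 were below every non-tumour library, by small margins except in tumour 1. This order depended on the scaling. By TPM, tumour 3 (233 TPM) was below every non-tumour library (238 to 258 TPM). Tumours 2 and 4 (291 and 282 TPM) were above them, and tumour 1 (208 TPM) stayed below. Dgat1 (chromosome 15, 76502015 to 76511953, minus strand) was at 14.8, 13.2, 17.3 and 13.5 CPM in tumours 1 to 4 and at 13.5, 14.9, 14.7 and 18.3 CPM in non-tumour 1 to 4. No step between Dgat1 profiles exceeded the 1.24-fold range within near-identical sets. By TPM, Dgat2 made up 95.4% to 96.6% of the DGAT transcripts in all 5 profiles. The log2 fold change was -0.09 for Dgat2 (SE 0.23, adjusted p = 0.995 by edgeR) and 0.03 for Dgat1 (SE 0.19, adjusted p = 0.999).

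Mogat1 encodes an MGAT and its transcript is known to be raised in fatty mouse liver (chromosome 1, 78510991 to 78538173, plus strand). By mean TPM, the level per exon length, it was the scarcest of the 10, though above Lipe in tumours 2/4 and 3. It was also the most variable, at 0.634, 2.65, 5.50 and 2.25 CPM in tumours 1 to 4 and at 1.26, 1.06, 1.62 and 2.27 CPM in non-tumour 1 to 4, from 14 to 87 reads per library. The lowest and the highest profile were thus both tumours, 8.68-fold apart; this range exceeded that of 96.4% of genes. Libraries of the near-identical non-tumour set differed by up to 2.14-fold at this depth, and only the step from tumour 2/4 to tumour 3 was larger. Means were 2.86 ± 2.46 CPM in tumours (SD, n = 3) and 1.45 ± 0.269 CPM in non-tumour liver (n = 2), and the log2 fold change was 0.95 (SE 0.81, adjusted p = 0.995 by edgeR). It was 0.12 without tumour 3 and 1.43 without tumour 1. The 3 genes with the most similar profiles were Sema5b (root mean square difference 0.07), Wfdc2 (0.20) and Cyp4a10 (0.23), a PPARα target of fatty acid omega-oxidation. Reads of Cyp4a10 can be shared with near-identical Cyp4a genes, so its level is uncertain. Mogat2, at 0.126 to 0.399 CPM in the 5 profiles, was too scarce to test.

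Pnpla2, which encodes ATGL, starts triglyceride lipolysis (chromosome 7, 141455198 to 141460743, plus strand). It was at 32.1, 34.4, 50.8 and 32.1 CPM in tumours 1 to 4 and at 42.2, 47.6, 52.7 and 49.0 CPM in non-tumour 1 to 4. Tumours 1, 2 and 4 were below every non-tumour library, while tumour 3 lay among the near-identical non-tumour 2, 3 and 4. By TPM the groups did not overlap. Tumours 1, 2/4 and 3 were at 22.1, 26.9 and 28.4 TPM, and non-tumour 1 and 2/3/4 at 28.7 and 32.1 TPM, so tumour 3 and non-tumour 1 were close. The means were 38.7 ± 10.5 and 45.9 ± 5.26 CPM (SD, n = 3 and 2), and the log2 fold change of -0.25 (SE 0.24) did not pass the test (adjusted p = 0.995 by edgeR). Its promoter (chr7:141454938-141455187, plus strand) has GC boxes that begin 109 bases and, on the opposite strand, 26 bases before the start.
Pnpla2 start: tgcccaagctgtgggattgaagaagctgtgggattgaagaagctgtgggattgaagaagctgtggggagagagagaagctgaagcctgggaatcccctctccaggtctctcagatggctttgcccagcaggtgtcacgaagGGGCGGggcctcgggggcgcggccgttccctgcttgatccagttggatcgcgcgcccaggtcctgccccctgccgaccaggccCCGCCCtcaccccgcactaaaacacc

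Lipe, which encodes HSL, had few reads, from 159 to 222 per library (chromosome 7, 25379527 to 25398710, minus strand), at 9.55, 9.38, 14.0 and 8.41 CPM in tumours 1 to 4. In non-tumour 1 to 4 it was at 8.76, 11.1, 10.8 and 10.1 CPM. Only tumour 3 stood out, 1.602-fold above non-tumour 1, and the other steps between profiles were within the spread of near-identical libraries. The log2 fold change was 0.15 (SE 0.26, adjusted p = 0.995 by edgeR).

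Mgll, which encodes monoglyceride lipase, also degrades the endocannabinoid 2-arachidonoylglycerol (chromosome 6, 88724412 to 88828360, plus strand). It was at 92.6, 174, 238 and 169 CPM in tumours 1 to 4 and at 170, 119, 114 and 119 CPM in non-tumour 1 to 4. In TMM-scaled CPM, tumour 1 was below and tumour 3 above all other libraries, 2.57-fold apart, and tumour 2/4 and non-tumour 1 could not be told apart. By TPM, tumour 1 stayed the lowest, and tumour 2/4 (82.1 TPM) was above tumour 3 (79.1 TPM) and non-tumour 1 (68.6 TPM). The mean was 167 ± 72.9 CPM in tumours (SD, n = 3) and 144 ± 37.1 CPM in non-tumour liver (n = 2). The log2 fold change was 0.22 (SE 0.41, adjusted p = 0.995 by edgeR), and -0.12 without tumour 3. A window of Mgll (chr6:88724162-88724411, plus strand), which ends where the counted gene begins, holds an E-box beginning 44 bases before the start.
Mgll start: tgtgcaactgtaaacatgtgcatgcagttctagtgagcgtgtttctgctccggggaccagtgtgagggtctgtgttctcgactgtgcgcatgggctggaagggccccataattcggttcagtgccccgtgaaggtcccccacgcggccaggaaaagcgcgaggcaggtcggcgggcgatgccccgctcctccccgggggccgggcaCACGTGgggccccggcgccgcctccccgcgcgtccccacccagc

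Compared per exon length, the 10 enzymes were ordered by their mean TPM over the 5 profiles. Dgat2 (247 ± 29.1 TPM, SD over 5 profiles) and Agpat2 (236 ± 33.8 TPM) were the most abundant, followed by Gpam (74.0 ± 44.4 TPM) and Mgll (62.6 ± 20.03 TPM). Pnpla2 (27.6 ± 3.62 TPM) and Lpin2 (22.1 ± 5.38 TPM) came next, then Dgat1 (9.90 ± 0.610 TPM) and Lpin1 (8.46 ± 1.07 TPM), and last Lipe (3.53 ± 0.359 TPM) and Mogat1 (2.87 ± 2.04 TPM). Between neighbours in this order, the ranges over profiles did not overlap from Agpat2 to Gpam, Mgll to Pnpla2, Lpin2 to Dgat1, or Lpin1 to Lipe, and overlapped otherwise. Gpam, with 21.5 to 128 TPM, also spanned the levels of Pnpla2, and in tumour 3 it lay below Pnpla2 (28.4 TPM) and Lpin2 (29.4 TPM). Transcripts of Dgat2 and Agpat2 were thus more abundant, per length, in every profile than those of Gpam and of all 3 lipases. Among the lipases, Mgll made up 59.8%, 72.9% and 71.0% of the summed TPM in tumours 1, 2/4 and 3 and 68.4% and 55.9% in non-tumour 1 and 2/3/4, and Lipe 3.04% to 5.32%.

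**Figure D3:**
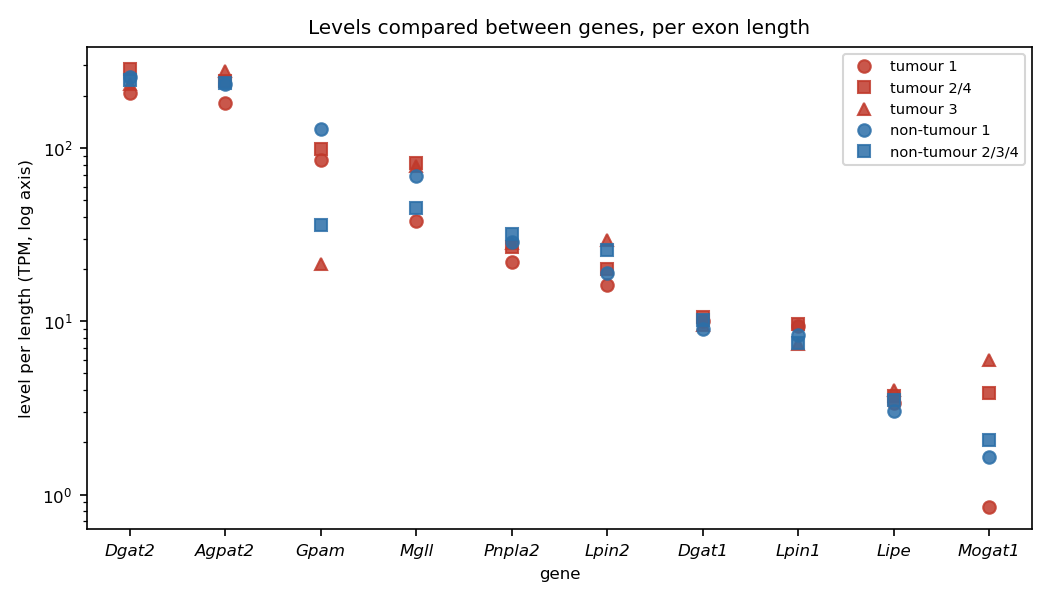
Levels per exon length (TPM, log axis) of the 10 enzymes in each of the 5 profiles, ordered by mean; red symbols are tumour and blue symbols non-tumour profiles. Dgat2 and Agpat2 lie between 183 and 287 TPM, Lipe between 3.05 and 4.02 TPM, and Gpam spans 21.5 to 128 TPM.

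The clearest pattern among the enzymes lay between profiles of the same group. Under TMM scaling, 8 of 10 enzymes, all except Gpam and Lpin1, were highest in tumour 3, as were 29.7% of genes tested. In tumour 1, 6 of 10 were lowest (Agpat2, Lpin2, Dgat2, Mogat1, Pnpla2 and Mgll), against 20% of genes. The highest profile was at least 2-fold above the lowest in 4 of 10 enzymes (Gpam, Lpin2, Mogat1 and Mgll), a share near the 33.5% of all genes. In 6 of 10, tumour 3 and non-tumour 2/3/4 were both above the other 3 profiles (Agpat2, Lpin2, Dgat1, Dgat2, Pnpla2 and Lipe; 21.2% of genes), the reverse of Gpam. Agpat2, Lpin2, Dgat2 and Pnpla2 shared the whole order, from tumour 3 through non-tumour 2/3/4, non-tumour 1 and tumour 2/4 down to tumour 1. This order was found in 2.78% of genes. Of its 4 steps, 1 in Agpat2, 2 in Dgat2 and 2 in Pnpla2 were within the spread of near-identical libraries. These patterns were picked after the enzymes' values were seen, so the shares of all genes are not a test of them.

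These counts depended on the scaling. The count highest in tumour 3 was 8 with DESeq2's size factors and with upper-quartile scaling, 6 with library size alone and 4 by TPM (Agpat2, Lpin2, Mogat1 and Lipe). The count with tumour 3 and non-tumour 2/3/4 above the rest was 5, 5, 4 and 1 under the same settings, with Lpin2 the enzyme left by TPM. The whole order was shared by 3 enzymes with either of the first settings (Agpat2, Lpin2 and Pnpla2) and held for Lpin2 alone with library size. It was found in 3.12% of genes with DESeq2's size factors, 2.73% with upper-quartile scaling and 1.44% with library size. For the other counts, the shares of all genes given above are for TMM scaling only. The 6 enzymes lowest in tumour 1 were the same under all of them. For each scaling, Gpam was lowest in tumour 3.

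**Figure D4:**
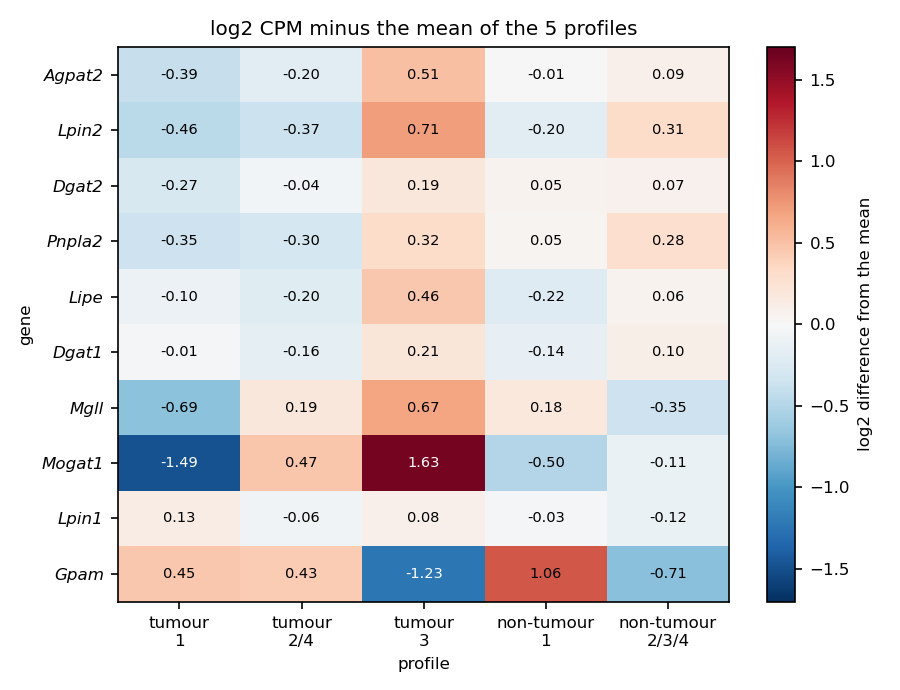
Log2 CPM of each enzyme minus its mean over the 5 profiles (colour and printed value; TMM scaling). Tumour 3 is the highest column for 8 of 10 genes, up to 1.63 for Mogat1, while Gpam is at -1.23 in tumour 3 and 1.06 in non-tumour 1.

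The sum of the 7 cholangiocyte markers (bile duct cells) also set tumour 3 apart from the other tumours. It was 403 and 193 CPM in tumours 1 and 2/4, 22.6 CPM in tumour 3, and 35.0 and 36.7 CPM in non-tumour 1 and 2/3/4. Most of this came from Spp1 and Tspan8, while Krt7 and the defining Krt19 were at or below 2.58 CPM in every profile. These keratin genes did not separate tumour 3. They were at 0.319 and 0.245 CPM in tumour 2/4, below the 0.632 and 0.379 CPM of tumour 3. The 8 stellate cell markers lay between 232 and 260 CPM, the 8 lymphocyte markers between 16.9 and 34.1 CPM and the 6 neutrophil markers between 1.90 and 5.23 CPM in all 5 profiles. The part of these cells in the enzyme values was not tested.

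Clock genes, which follow the time of day, differed in tumour 3 from the other profiles. Of 12 tested, 8 were highest in tumour 3, against 29.7% of all genes: Dbp, a clock output factor, was at 85 CPM there and at 3.98 to 13.9 CPM in the other profiles, Per3 at 18.6 against 1.16 to 2.60 CPM, and Per2 at 22.9 against 5.02 to 7.45 CPM. Arntl, a core clock activator named after its values were seen, had 2.09 CPM there and 16.9 to 23.0 CPM elsewhere. The labels used here give no time of sampling, and the part of the time of day in the enzyme values was not tested. Genes that follow feeding gave no such count: of 10 that rise with feeding, 3 were highest in tumour 3, the share of all genes, and 5 in non-tumour 1, where 20.4% of all genes were highest. Thrsp, a lipogenic nuclear protein, had 431 CPM in tumour 3 against 97.4 to 171 CPM elsewhere. Igfbp1, which is raised by fasting, had 3.92 CPM in tumour 3, against 626 and 461 CPM in the other tumour profiles, and 95.3 and 36.2 CPM in non-tumour 1 and 2/3/4. Of 12 genes that fasting raises, 5 were highest in tumour 3, near the share of all genes. Pck1, the gluconeogenic enzyme of fasting, was highest in non-tumour 2/3/4, at 1389 CPM against 280 to 703 CPM in the other profiles.

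The proteins that steer ATGL gave the only ratio without overlap between the groups. G0s2, which encodes an inhibitor of ATGL, was at 66.3, 106 and 109 CPM in tumours 1, 2/4 and 3 and at 78.2 and 43.2 CPM in non-tumour 1 and 2/3/4. The log2 ratio of G0s2 to Pnpla2 by TPM was 2.84, 3.47 and 2.90 in the tumours and 2.69 and 1.595 in non-tumour liver. Tumours averaged 3.07 ± 0.35 (SD, n = 3) and non-tumour liver 2.14 ± 0.77 (n = 2), a difference of 0.93 with an exact two-sided permutation p = 0.20. That is the smallest p that 3 against 2 profiles allow, and adjusted over the 10 shares and ratios computed it was 1; tumour 1 and non-tumour 1 differed by less than the spread of either group. Abhd5, the coactivator of ATGL, was at 74.3, 51.3 and 32.4 CPM in the tumours and at 42.7 and 36.1 CPM in non-tumour liver. Its log2 ratio to Pnpla2 was 0.23, -0.35 and -1.63 against -0.96 and -1.44, with overlap.

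**Figure D5:**
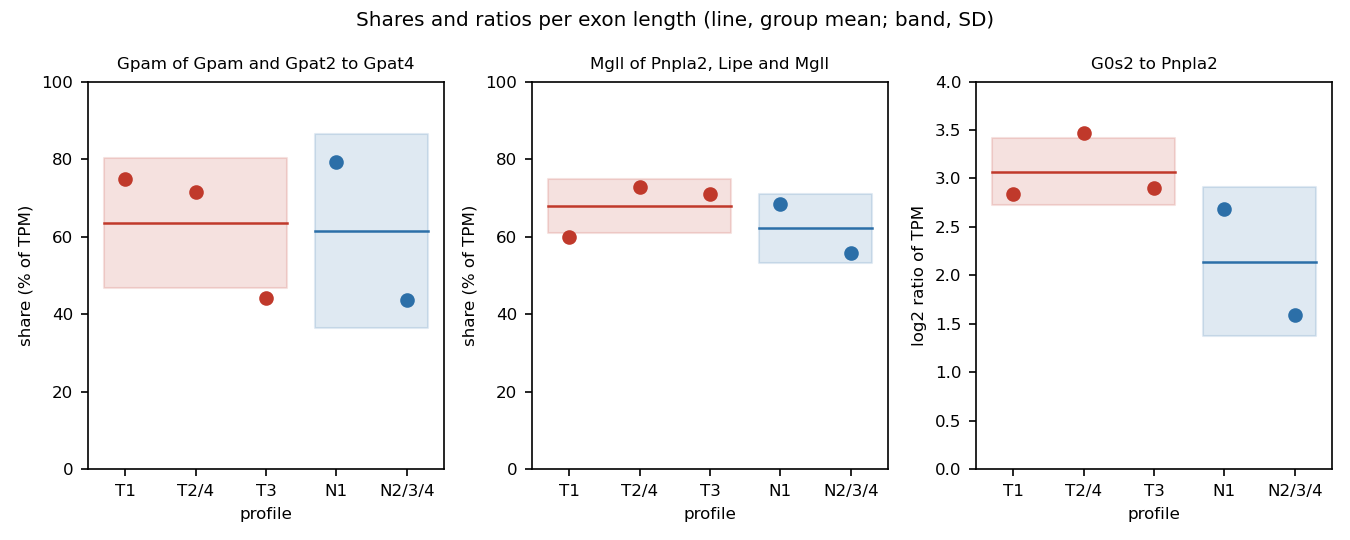
Share of Gpam among 4 GPAT transcripts and of Mgll among 3 lipase transcripts (percent of TPM), and log2 ratio of G0s2 to Pnpla2 TPM, in each profile; points are profiles, lines group means and bands 1 SD (3 tumour, 2 non-tumour). The shares overlap between groups, and the ratio runs from 2.84 to 3.47 in tumour and from 1.595 to 2.69 in non-tumour profiles.

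Other genes of the pathway gave 0 calls as well in edgeR's test of the profiles, over 8 lists of related genes chosen by function, and 1 of them, Angptl8, had an unadjusted p under 0.05. Among 10 tested genes that supply glycerol phosphate and acyl-CoA, 5 log2 fold changes were positive and 5 negative, with a median of 0.03 against 0.01 for all genes. The acyl-CoA synthetase genes Acsl3, Acsl4 and Acsl5 had the largest of them (0.49, 0.49 and 0.41); Acsl4, which prefers arachidonic acid, was at 117, 84.3 and 30.9 CPM in tumours 1, 2/4 and 3 and at 59.3 and 51.0 CPM in non-tumour liver, so that tumour 3 was again opposite to the other tumours. The fatty acid transporter gene Slc27a2 was highest in tumour 3, at 1604 CPM against 826 to 1096 CPM. Gpd1, which makes glycerol phosphate, lay between 329 and 469 CPM in all 5. Of 13 tested relatives of the synthesis enzymes, 7 were positive and 6 negative (median 0.13); the groups did not overlap in 3, near the 18.4% of all genes, namely Lpin3 (higher in tumours), Gpat4 and Lclat1 (lower), the last a lysophospholipid acyltransferase gene named for this separation.

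Of 19 lipase relatives and cofactors, 7 had positive and 12 negative log2 fold changes (median -0.04). Carboxylesterase genes were highest in non-tumour 2/3/4: Ces1d, a microsomal triglyceride hydrolase, was at 255, 364 and 419 CPM in tumours 1, 2/4 and 3 and at 328 and 720 CPM in non-tumour 1 and 2/3/4, and Ces2a at 62.3, 71.7 and 145 CPM against 87.9 and 269 CPM. Carboxylesterase genes are close copies of each other, so reads that match several are uncertain. Pnpla5, a relative of ATGL that feeding raises, was at 15.4, 7.40 and 2.02 CPM in the tumours and at 8.91 and 0.652 CPM in non-tumour liver. It was thus low in tumour 3 and non-tumour 2/3/4, as Gpam was. Lpl, the lipoprotein lipase gene, was high in tumours 1 and 2/4 (117 and 96.1 CPM), low in tumour 3 (13.2 CPM) and between them in both non-tumour profiles (46.9 and 45.7 CPM).

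Among 14 tested genes of the phospholipid branch, which draws on the same phosphatidic acid and diacylglycerol, 8 were positive and 6 negative (median 0.05). Chka, which encodes choline kinase alpha, was likewise above both non-tumour profiles (76.9 and 47.5 CPM) in tumours 1 and 2/4 (224 and 111 CPM) and below them in tumour 3 (36.5 CPM). Pemt, which makes phosphatidylcholine by methylation, was at 139, 164 and 321 CPM in tumours 1, 2/4 and 3 and at 219 and 302 CPM in non-tumour 1 and 2/3/4, in the same order of profiles as Agpat2, Lpin2, Dgat2 and Pnpla2. The groups did not overlap in 3 of the 14, near the 18.4% of all genes. These were Pcyt1a and Selenoi, of the choline and ethanolamine routes, and Cds2, named for this separation. All were lower in all tumour than in all non-tumour profiles. Their log2 fold changes of -0.43 (SE 0.18), -0.44 (SE 0.20) and -0.43 (SE 0.20) did not pass the edgeR test.

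Of 12 transcriptional and insulin-signalling regulators of these enzymes, 5 had positive and 7 negative log2 fold changes (median -0.12). Under TMM scaling, 6 of the 12 were highest in tumour 3, against 29.7% of all genes. Srebf1, which encodes the lipogenic factor SREBP-1, was at 150, 159 and 220 CPM in tumours 1, 2/4 and 3 and at 174 and 152 CPM in non-tumour liver. Mlxipl, which encodes the carbohydrate-response factor ChREBP, was at 142, 112 and 263 CPM against 135 and 125 CPM. Under TMM scaling, both were therefore highest in tumour 3, where 8 of the 10 enzymes were highest and Gpam, a known SREBP-1 target, was lowest. The count of enzymes highest there fell to 4 by TPM. The places of the regulators are given for TMM scaling only and can likewise change with the scaling. Ppara, which encodes the regulator of fatty acid oxidation, was at 43.1, 61.8 and 40.6 CPM in the tumours and at 102 and 32.9 CPM in non-tumour 1 and 2/3/4. Angptl8, a secreted protein gene that feeding raises, was the feeding gene with the largest log2 fold change (0.95, SE 0.26): 82.0, 78.7 and 48.7 CPM in the tumours and 37.9 and 34.3 CPM in non-tumour liver, without overlap. It did not pass the test with near-identical libraries counted once, and it was the 1 gene of its list called with the 8 libraries kept separate.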

How the data were processed

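Tissue had been snap-frozen, lysed in Trizol and made into Illumina mRNA libraries, per the labels' protocols. The deposited values are raw read counts per gene, which the authors made with featureCounts 1.6.2 over exons of Ensembl release 95 (GRCm38) with strand setting 2, per the file headers. Multi-mapping reads were not counted. STAR 2.5.0 and Subread 1.6.2 are also named in the submitters' processing notes; trimming is not given in the sources used here. Symbols came from a reference table, which matched 54723 of 54838 IDs.

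The 10 enzymes, the related gene lists and the cell type markers were chosen by function with earlier results of these data known. Libraries of a group with a chi-square of gene counts under 10 per degree of freedom (genes with at least 20 reads in a pair) were summed and counted once, a limit set by earlier work after seeing the data. Tumour and non-tumour profiles were compared with edgeR 4.0.16 in R 4.3.3 (robust glmQLFit and glmQLFTest, TMM scaling, filterByExpr with minimum count 10 and minimum total 15) and p-values adjusted by Benjamini-Hochberg over the whole table, at a threshold of 0.05. A standard error is the fold change (log2) over the root of its F. TPM used the exon lengths of the files. Shares and ratios were compared by exact permutation over profiles. Besides the enzymes, genes were named as the 3 most abundant per length and the 3 with the largest absolute log2 fold change of each list, shown in part; for Gpam and Mogat1, which had the widest ranges, the 3 genes with the most similar profiles and a mean of at least 1 CPM; others were chosen after their values were seen (Abhd5, G0s2, Afp and Arntl among them). Alternatives were other scalings and filters, DESeq2 1.42.0, limma 3.58.1 voom, separate libraries with and without a replicate block, and leaving out each library or profile. Scripts were tested on simulated data. Precision is limited by 3 against 2 profiles.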

Additional observations from a re-analysis of the deposited data

How the results depend on the processing

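Of the 10 enzymes, Lpin1, Mogat1 and Pnpla2 kept the direction of their log2 fold change under all 23 alternatives tried, and the other 7 turned it under at least 1. With the 8 libraries kept separate, Gpam turned to 0.20 and Dgat1 to -0.054, and with the replicate block added they were at 0.30 and -0.054. Upper-quartile scaling moved Agpat2 to 0.0097 and Lpin2 to 0.0099. Dgat1 was at -0.0056 without an expression filter and at -0.0010 with limma voom. Leaving out 1 library or profile gave log2 fold changes of -0.99 to 0.88 for Gpam, -0.33 to 0.16 for Agpat2, -0.58 to 0.26 for Lpin2, -0.14 to 0.16 for Dgat1, -0.21 to 0.019 for Dgat2, -0.15 to 0.30 for Lipe and -0.12 to 0.58 for Mgll. The cause was not tested.

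The number of genes called over the whole table was 0, 56 with separate libraries, 0 with separate libraries and a replicate block, 427 without an expression filter (of 24531 genes) and 2 with DESeq2. It ran from 0 to 1798 when 1 library or profile was left out, the highest without tumour 3 from separate libraries; without tumour 3 from the profiles it was 5. Genes whose groups did not overlap numbered 2506, and 1385 over the 8 separate libraries. The samples were not treated as paired: the labels tie the replicate numbers to no shared animal, and deviations of same-numbered libraries correlated at 0.34, -0.15, 0.28 and -0.14. Tumours 1 and 3 correlated best with their own number, and tumours 2 and 4 with non-tumour 1. Non-tumour 2, 3 and 4 were nearly the same library, so the best match of tumour 3 among them cannot show pairing. The median log2 fold change of all genes stayed between -0.01 and 0.06 under these settings. Mogat1, at 14 to 87 reads per library, is the enzyme that depth limits most.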
